A study of Mus musculus with 4 samples.

Results

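Toll-like receptors (TLRs) are the sensors by which macrophages detect microbial lipids, proteins and nucleic acids. The chromatin of 10 mouse genes was described here: the receptors Tlr1, Tlr2, Tlr3, Tlr4, Tlr6 and Tlr9, the co-receptors Cd14 and Ly96, and the adaptors Myd88 and Ticam1. They were chosen by name from 21468 protein-coding genes with a known strand. For each gene, every accessible region was read in a window from 10 kb before its 5′ end to its 3′ end. The cells were RAW264.7, a mouse macrophage line grown from a virus-induced tumour, and the data were lists of peaks from ATAC-seq, which marks open DNA by the cuts of a transposase. All cells were WT by their labels and had received 25 ug/mL DIL-oxLDL, a dye-labelled oxidized low-density lipoprotein, for 24 h. DMSO, the solvent, was given to the control group (n = 2 libraries, control 1 and control 2). Esculetin, a coumarin found in plants, was given at 40 ug/mL to the other group (n = 2 libraries, esculetin 1 and esculetin 2). The comparison asked how esculetin altered open chromatin in lipid-loaded macrophages. The labels do not say that replicates were separate cultures, so the spread between libraries may be technical.

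TLRs are membrane proteins with a ligand-binding outer part and an inner TIR domain. Tlr1 and Tlr6 pair with Tlr2 to bind bacterial lipopeptides, and Tlr4 together with Ly96 (also called MD-2) binds bacterial lipopolysaccharide that Cd14 hands over. Tlr3 and Tlr9 lie in endosomes and bind double-stranded RNA and CpG-rich DNA. The adaptor Myd88 serves nearly all of these receptors and leads to NF-kB activation. The adaptor Ticam1 (also called TRIF) serves Tlr3 and Tlr4 and leads to type I interferon. In macrophages, Tlr4 and Cd36 have both been linked to the response to oxidized lipoproteins.

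The promoter sequences of 4 genes are shown as examples of some of the patterns found in the peak lists. Each run gives the bases directly before the gene's 5′ end, 5′ to 3′ on the strand of the gene, from RefSeq on GRCm38.p6, the assembly of mm10. Capitals mark matches to any of 10 short motifs, searched on both strands. Ticam1 carried a peak in all 4 libraries, Tlr9 in both control libraries alone, Myd88 had its closest peak at the start of a neighbour, and Tlr1 had none. They lie at chr17:56276768-56277017 (Ticam1, minus strand), chr9:106222348-106222597 (Tlr9, plus strand), chr9:119340019-119340268 (Myd88, minus strand) and chr5:64933601-64933808 (Tlr1, minus strand).
Ticam1: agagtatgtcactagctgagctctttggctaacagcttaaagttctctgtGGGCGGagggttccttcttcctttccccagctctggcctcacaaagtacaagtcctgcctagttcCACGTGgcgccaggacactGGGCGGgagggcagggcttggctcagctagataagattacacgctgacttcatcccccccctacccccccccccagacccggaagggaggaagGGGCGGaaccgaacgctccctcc
Tlr9: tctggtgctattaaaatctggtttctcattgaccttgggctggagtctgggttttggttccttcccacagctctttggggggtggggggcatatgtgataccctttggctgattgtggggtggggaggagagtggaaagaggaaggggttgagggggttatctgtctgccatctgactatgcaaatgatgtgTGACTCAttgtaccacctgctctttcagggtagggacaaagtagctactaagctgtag
Myd88: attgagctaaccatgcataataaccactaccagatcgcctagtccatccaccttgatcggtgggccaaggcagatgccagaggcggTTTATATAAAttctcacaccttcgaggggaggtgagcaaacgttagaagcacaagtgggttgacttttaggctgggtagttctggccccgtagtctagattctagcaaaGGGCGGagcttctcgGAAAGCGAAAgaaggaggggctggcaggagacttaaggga
Tlr1: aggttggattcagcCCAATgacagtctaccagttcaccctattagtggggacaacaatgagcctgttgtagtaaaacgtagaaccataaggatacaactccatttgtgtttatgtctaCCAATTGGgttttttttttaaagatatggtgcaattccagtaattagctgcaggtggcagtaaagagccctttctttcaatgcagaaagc

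The Ticam1 promoter held 3 matches to the GC box GGGCGG and 1 to the E-box CACGTG. A GC box was found in 42.6% of 21255 promoter sequences of the same length (250 bases), and this E-box in 6.63%. The Tlr9 promoter had 1 match, to the AP-1 letters TGANTCA, 52 to 58 bases before the start, a motif present in 6.14% of promoters. The Myd88 promoter had a match to the interferon regulatory factor motif (GAAA, 2 bases of any kind, GAAA) 31 to 40 bases before the start, found in 2.96% of promoters. It also held a GC box and a pair of overlapping matches to the TATA letters TATAAA, which 11.6% of promoters hold. In Tlr1 the 3 capitalised matches were to CCAAT (35.4% of promoters), with the last 2 overlapping on opposite strands. The other motifs searched were GAGGAAGT (PU.1, 2.23%), TTGCNNAA (C/EBP, 9.09%), the NF-kB motif (GGGA, 2 bases of any kind, TTCC, 1.19%) and TGACGTCA (CRE, 1.92%). None of these 4 lay in the runs shown. The Tlr1 run holds 208 bases, fewer than the promoters behind the shares. A PU.1 match lay beyond it, 16 to 23 bases before a second Tlr1 start that is 42 bp into the gene. Among promoters not shown, NF-kB and C/EBP matches lay before the second start of Tlr3, and a C/EBP match before an internal start of Tlr6. A match is a description of letters and not evidence of a bound factor.

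Promoters with and without a peak differed in CpG content across the genome. The observed over expected CpG ratio in the 250 bases before the start had a median of 0.806 in 4902 protein-coding genes with a promoter peak in all 4 libraries and 0.252 in 8999 genes with none. Of the members, 7 were in the promoter sequence table. Their ratio ranged from 0 at Tlr9, which held no CpG at all, to 0.590 at an internal start of Tlr6. Ticam1 (0.410) and Myd88 (0.566) also lay below the median of the genes called in all 4 libraries. Tlr2 had 0.447 with 62.8% G and C.

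The lists differed in length, which bears on every count below. There were 19595 peaks in control 1, 27833 in control 2, 8677 in esculetin 1 and 12792 in esculetin 2. The genome-wide background coverage, solved from the peak caller's own statistics, was 6.51, 4.08, 4.97 and 4.10 reads in the same order and overlapped between the groups. It stands for depth only if the caller extended reads equally in every library, which the sources do not say. In control 2, 54.6% of the 1000 strongest peaks lay in annotated pseudogenes, against 0.400% to 1.90% in the other libraries. Of 10 macrophage markers, control 1 had a peak within 1 kb of a start for 5, control 2 of 6, esculetin 1 of 1 and esculetin 2 of 3, beside 40.7%, 42.1%, 30.1% and 37.9% of all protein-coding genes. Adgre1, Csf1r, Itgam and Mertk had none in any library at the starts used. Of 34 markers of 8 other cell types (T and B cells, epithelium, kidney epithelium, fibroblast, endothelium, hepatocyte, neuron), the sole promoter peak was at Apoa2 in esculetin 1. The part of list length, pseudogene peaks and marker calls in the results was not tested, other than by the lists of equal length and those without pseudogene peaks.

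Fewer peaks were found around the 10 genes after esculetin. Their windows held 11 peaks in control 1, 13 in control 2, 4 in esculetin 1 and 7 in esculetin 2. On average this was 12 ± 1.41 for the controls and 5.5 ± 2.12 for esculetin (SD, n = 2 each), a ratio of 0.458. The whole lists shortened by nearly the same factor, with a ratio of 0.453. Per 10000 peaks of the list, the windows held 5.61 and 4.67 in the controls and 4.61 and 5.47 in the esculetin libraries, so that the groups overlapped. At least 1 peak was present in the windows of 8 genes in each control library, of 4 genes in esculetin 1 and of 7 in esculetin 2. Over all protein-coding genes a peak lay in 53.1% of such windows in control 1, 57.9% in control 2, 37.1% in esculetin 1 and 47.1% in esculetin 2.

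A promoter peak, meaning a summit within 1 kb of an annotated start of the gene, was found for 5 of the 10 genes in control 1, 7 in control 2, 2 in esculetin 1 and 4 in esculetin 2. For 3 genes, Tlr1, Tlr3 and Myd88, there was none in any library, as for 52.8% of protein-coding genes. Among all protein-coding genes, the share was 40.7% in control 1, 42.1% in control 2, 30.1% in esculetin 1 and 37.9% in esculetin 2. The 10 genes averaged 6 ± 1.41 in the controls and 3 ± 1.41 with esculetin (SD, n = 2 each). List length differed between the groups, and its part in this difference cannot be told apart from that of esculetin. With every list cut to its 8677 strongest peaks, the numbers were 3 and 2 in the controls and 2 and 3 in the esculetin libraries. The cut also changes which weak peaks can count, and the share of all protein-coding genes in the cut lists was not computed. Ticam1 was then counted in every library, Tlr4 in all but esculetin 1, Tlr6 in control 1 and esculetin 1, and Ly96 in esculetin 2.

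**Figure D1:**
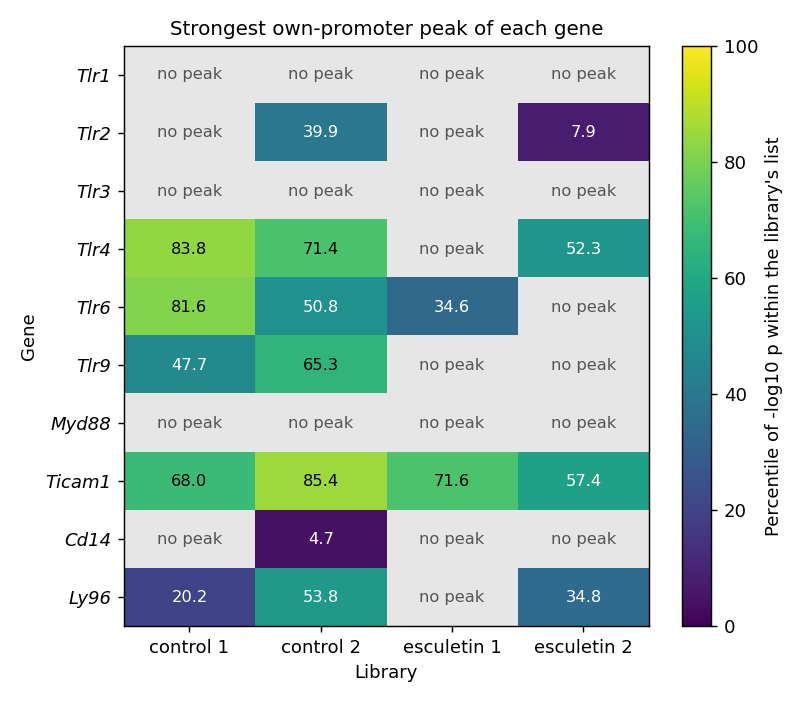
Each cell gives the percentile of the strongest peak within 1 kb of an annotated start of the gene (rows) in each library (columns), where the percentile is the place of the peak's −log10 p in its own list (0 weakest, 100 strongest). Ticam1 has a value in all 4 columns (57.4 to 85.4), Tlr9 in the control columns alone (47.7 and 65.3), and Tlr1, Tlr3 and Myd88 in none. The Tlr6 row mixes regions: control 1 and esculetin 1 show the region before an internal start, and control 2 the Fam114a1 start. Esculetin 2 is blank there although the internal region was called in it, at percentile 73.7.

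In all, 35 peaks merged into 14 regions. All 4 libraries shared 4 of them, 4 were in both control lists but neither esculetin list, and 2 were missing from esculetin 1 alone. No region of these genes was in both esculetin lists but neither control list. Among all 36037 merged regions, 17.2% were called in all 4 libraries, 13.9% in both control libraries alone, 6.11% in all but esculetin 1 and 0.832% in both esculetin libraries alone. The 4 control-only regions lay at the start of Tlr9, inside Tlr2, inside Tlr4 and at the start of Fam114a1, a neighbour that begins inside Tlr6. With 8677 peaks per library, 1 of these 4 was still called in both controls and in neither esculetin library, the one inside Tlr4. The share of all regions with that pattern in the cut lists was not computed.

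**Figure D2:**
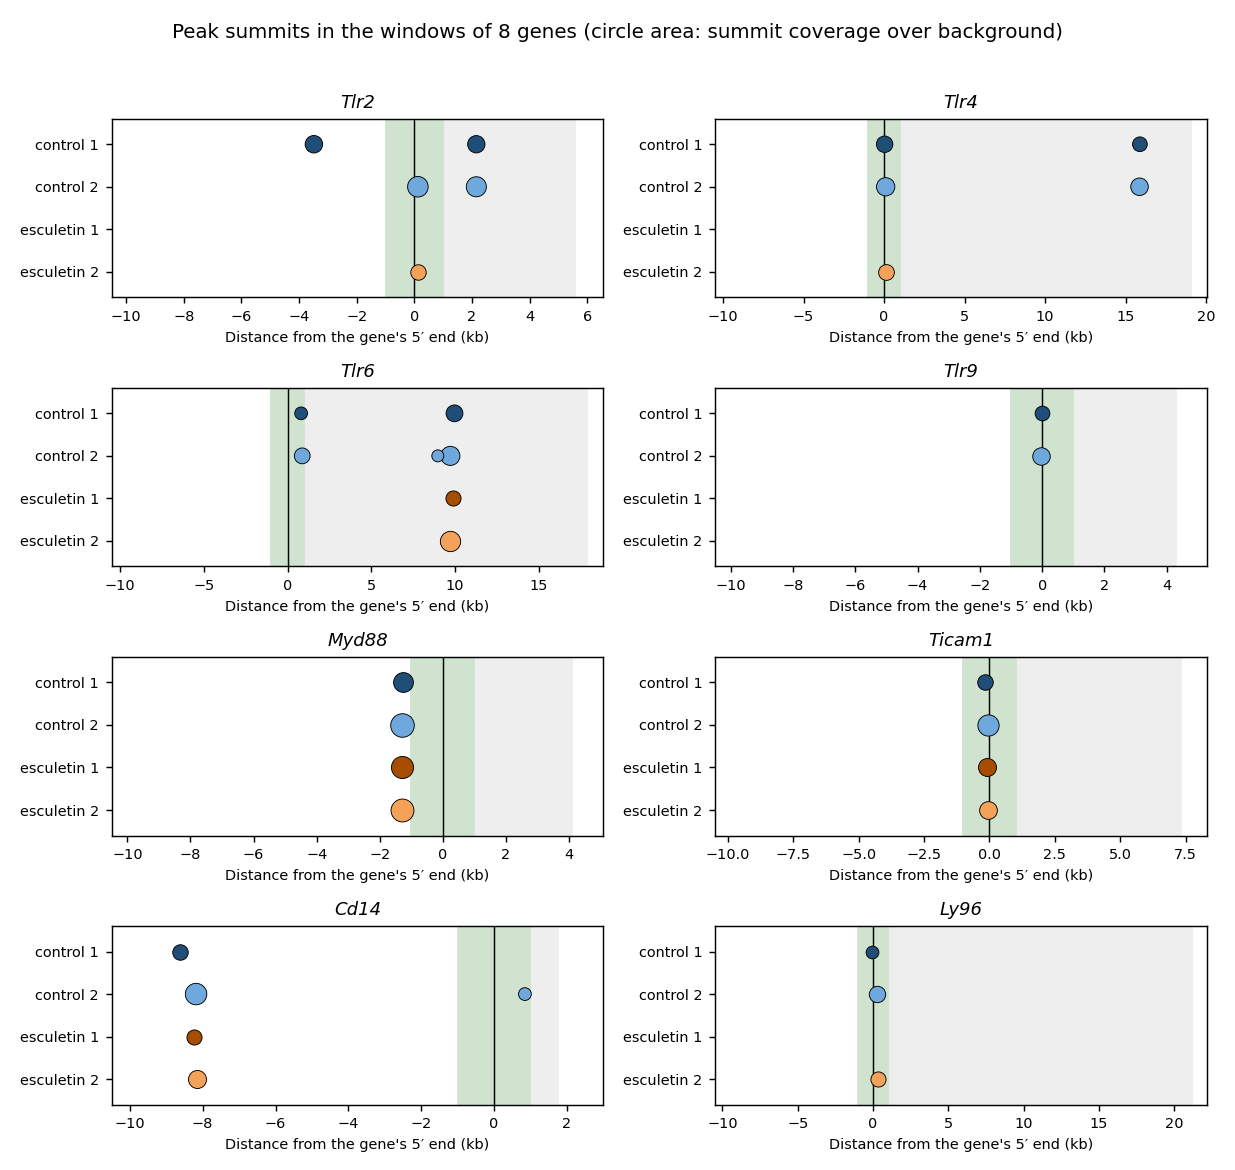
Peak summits are placed by their distance in kb from the 5′ end of each gene (x axis, in the direction of transcription) in each library (y axis), with circle area in proportion to summit coverage over the library's background. Grey marks the gene and green the 1 kb on either side of its 5′ end. The summits of Ticam1 line up at the 5′ end in all 4 libraries, those of the Myd88 window lie 1280 to 1306 bp before it, and those 2148 to 2149 bp into Tlr2 and 15862 to 15885 bp into Tlr4 appear in the control rows alone.

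The receptors of lipopolysaccharide and lipopeptides came first. Tlr4 (chromosome 4, 66827551 to 66846581, plus strand), the lipopolysaccharide receptor, had a peak at its start in 3 libraries, with summits 35, 101 and 136 bp into the gene. Its percentile was 83.8 in control 1, 71.4 in control 2 and 52.3 in esculetin 2. No peak was called there in esculetin 1. The 3 values were thus highest in the controls, and the missing call fell in the shortest list. A promoter peak missing from esculetin 1 alone was seen in 6.16% of protein-coding genes.

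For depth, the coverage at each summit was recovered as a number of reads and divided by the background of its library. At the start of Tlr4 it was 45 reads (6.91 times the background) and 35 reads (8.58 times) in control 1 and control 2, and 26 reads (6.34 times) in esculetin 2. Poisson 95% intervals of the ratio ran from 5.04 to 9.25, 5.98 to 11.9 and 4.14 to 9.29 in the same order and overlapped. The absent call in esculetin 1 allowed up to 16 reads, or 3.22 times the background, over a stretch long enough to be called. Such a limit takes the highest local background seen at the region in a called library. A narrower summit than the shortest peak in the lists (200 bp) could exceed it. The limit is set by the calling threshold, so a called value above it in part restates the calls.

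A further region inside Tlr4, 15862 to 15885 bp from its 5′ end (66843306 to 66843591), was called in both control libraries alone. The percentiles there were close, 68.8 and 69.4. Coverage was 36 and 32 reads, 5.53 and 7.84 times the background. In the esculetin libraries the absent calls allowed at most 14 and 12 reads, 2.82 and 2.93 times the background. These limits lay below the lower ends of the control intervals, 3.87 and 5.37. They come from the threshold that left the region uncalled with esculetin, so this order in part restates the calls.

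Tlr2 (chromosome 3, 83836272 to 83841824, minus strand), the shared partner of the lipopeptide receptors, had a promoter peak in control 2 and esculetin 2. Their percentiles were 39.9 and 7.88, with 44 reads (10.8 times the background) and 25 reads (6.10 times). Both summits lay close together, 121 and 129 bp from the 5′ end and just before a second annotated start 216 bp into the gene. A second region 2148 to 2149 bp into the gene was called in both controls alone, with percentiles of 64.7 and 49.3 and coverage of 7.68 and 10.3 times the background. Control replicate 1 had another peak 3485 bp before the gene, at percentile 54.6.

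The local background around Tlr2 was high, 2.35 to 3.20 times the genome-wide level at its highest over these 3 regions. The absent calls in the esculetin libraries at the region inside the gene therefore allowed 28 and 24 reads, or 5.64 and 5.85 times the background. The interval of control 1 began at 5.70, so that a difference between it and esculetin 2 was not detectable at this depth, and the interval of control 2 began at 7.42. At the promoter, absent calls allowed up to 5.84 times the background in control 1 and 6.44 times in esculetin 1. The called value in esculetin 2 (6.10, with an interval from 3.95 upwards) lay between these limits, so a difference from either library was not detectable there, whereas the interval of control 2 (7.84 to 14.5) lay above both limits.

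Tlr6 (chromosome 5, 64953092 to 64970942, minus strand), a partner of Tlr2, has 3 annotated starts, at its 5′ end and 10894 and 11776 bp further in. A region 9670 to 9967 bp from the 5′ end was called in all 4 libraries. It lay 927 and 991 bp before the first internal start in control 1 and esculetin 1, and 1173 and 1224 bp before it in control 2 and esculetin 2. It therefore counted as a promoter peak in the first pair and missed the 1 kb limit in the second. The percentiles of this region were 81.6 and 79.4 in the controls and 34.6 and 73.7 in the esculetin libraries. Both esculetin values lay below both controls (difference of means -26.3, exact permutation p = 0.33, two-sided). With 2 libraries per group, 0.33 is the smallest p this test allows. With 8677 peaks per library the difference was 1.79, beside a median of 11.1 over the regions that all cut lists held.

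Reads told a different order at this Tlr6 region. The coverage was 7.22 and 9.32 times the background in the controls and 5.84 and 10.5 times in the esculetin libraries. Esculetin 1 was below and esculetin 2 above both controls, and the ratio of group means was 0.987 (exact permutation p = 1, two-sided). Another region, 813 to 879 bp into Tlr6, was called in both controls alone, with percentiles of 31.6 and 50.8. It lay at the annotated start of the neighbour Fam114a1, 867 bp into Tlr6, and within 1 kb of the microRNA gene Mir574, so it cannot be assigned to Tlr6. Being within 1 kb of the 5′ end as well, it was the sole basis of the Tlr6 promoter call in control 2, whereas no promoter call was made in esculetin 2, where the region further in had its highest coverage over background. The promoter calls of Tlr6 therefore turned on the 1 kb limit. Control replicate 2 alone had a weak peak 8971 bp into the gene, at percentile 0.553.

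Tlr1 (chromosome 5, 64924680 to 64933600, minus strand), the other partner of Tlr2, had no peak in its window in any library. The genes Tlr1 and Tlr6 are neighbours on chromosome 5 and face the same way.

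The co-receptors Ly96 and Cd14 differed from each other. Ly96 (chromosome 1, 16688456 to 16709605, plus strand), which encodes the lipopolysaccharide-binding partner of Tlr4, had a promoter region in all but esculetin 1, as Tlr4 did. The percentiles were 20.2 and 53.8 in control 1 and control 2 and 34.8 in esculetin 2, so that the esculetin value lay between the controls. Coverage was 27, 28 and 24 reads, or 4.15, 6.86 and 5.85 times the background. In esculetin 1 the limit was 3.22 times, within the interval of control 1 (2.73 to 6.04) and below those of control 2 (4.56 to 9.92) and esculetin 2 (3.75 to 8.71). The summits ranged from 75 bp before the start in control 1 to 245 and 305 bp after it in control 2 and esculetin 2.

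Cd14 (chromosome 18, 36725064 to 36726815, minus strand), which encodes the protein that passes lipopolysaccharide on, had an own-promoter peak in control 2 alone. It was weak (percentile 4.67, 17 reads, 4.17 times the background) and lay 847 bp into a gene of 1752 bp. The window of Cd14 held a stronger region called in all 4 libraries, 8166 to 8618 bp before the gene, at the start of Tmco6, 8204 bp away. Its percentiles were 72.9 and 86.1 in the controls and 44.3 and 63.0 in the esculetin libraries, both lower (difference -25.8, exact permutation p = 0.33, two-sided, the smallest possible), and with 8677 peaks per library the difference was -2.21, beside the same median of 11.1. By coverage over background the groups overlapped, with 6.15 and 11.8 in the controls and 5.84 and 8.29 in the esculetin libraries (ratio 0.789, exact permutation p = 0.67, two-sided).

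Of the endosomal receptors, Tlr9 had a peak and Tlr3 had none. Tlr9 (chromosome 9, 106222598 to 106226876, plus strand), the receptor of CpG-rich DNA, was called at its start in both controls and in neither esculetin list. The summits lay 12 and 33 bp before the start, and the AP-1 match printed above lay within both peaks (106222145 to 106222737 and 106222395 to 106222737). The percentiles were 47.7 and 65.3. This pattern held for 3.75% of protein-coding genes, and the opposite pattern for 0.419%. The 10 genes gave 1 and 0.

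At Tlr9 the coverage was 36 and 32 reads in control 1 and control 2, which was 5.53 and 7.84 times the background with intervals of 3.87 to 7.66 and 5.37 to 11.1. The absent calls in the esculetin libraries allowed up to 18 and 15 reads, 3.62 and 3.66 times the background. Both limits lay below both intervals. As the limits come from the threshold that made this region control-only, the order in part restates the calls and is not separate evidence. By rank, the Tlr9 peaks stood at 10251 of 19595 and 9659 of 27833, past the 8677 peaks of the shortest list. Neither control call would be kept in lists of that length.

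Tlr3 (chromosome 8, 45395665 to 45411075, minus strand), the receptor of double-stranded RNA, had no peak in any library, neither at its 5′ end nor at its second start 695 bp further in.

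The adaptors Ticam1 and Myd88 each had a region that was called in all 4 libraries. Ticam1 (chromosome 17, 56269462 to 56276767, minus strand), the adaptor of Tlr3 and Tlr4, was the sole member with an own-promoter peak in all 4 libraries, against 26.9% of protein-coding genes. Its summits lay 48 to 179 bp before the start. The percentiles were 68.0 and 85.4 in the controls and 71.6 and 57.4 in the esculetin libraries, so the groups overlapped. Controls averaged 76.7 ± 12.3 and esculetin libraries 64.5 ± 10.1 (SD, n = 2 each), with a two-sided exact permutation p of 0.67. Coverage over background was 6.15 and 11.5 in the controls and 8.25 and 8.05 in the esculetin libraries, a ratio of means of 0.923 (exact permutation p = 1, two-sided). The difference between the control libraries was larger than that between the group means.

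Myd88 (chromosome 9, 119335934 to 119340018, minus strand), the adaptor of nearly all TLRs, had no summit within 1 kb of its start. The strongest region of all 10 windows lay 1280 to 1306 bp before it in all 4 libraries, at the start of the neighbouring gene Acaa1a, 1276 bp away. The peaks spanned 119340926 to 119341603 at their widest. Percentiles were 91.8 and 87.0 in the controls and 92.9 and 87.7 in the esculetin libraries, a difference of 0.922 (exact permutation p = 0.67, two-sided). Coverage was 65 and 58 reads in the controls and 62 and 55 reads in the esculetin libraries, 9.99, 14.2, 12.5 and 13.4 times the background. Neither measure separated the groups, whereas the percentile of the fold enrichment did, with a difference of 8.77 (exact permutation p = 0.33, the smallest possible). By that measure the shared regions in Tlr6 and at Tmco6 separated downwards (-33.9 and -25.9), and the median over 6181 shared regions was -2.83. The share of all regions that separate by it was not computed.

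**Figure D3:**
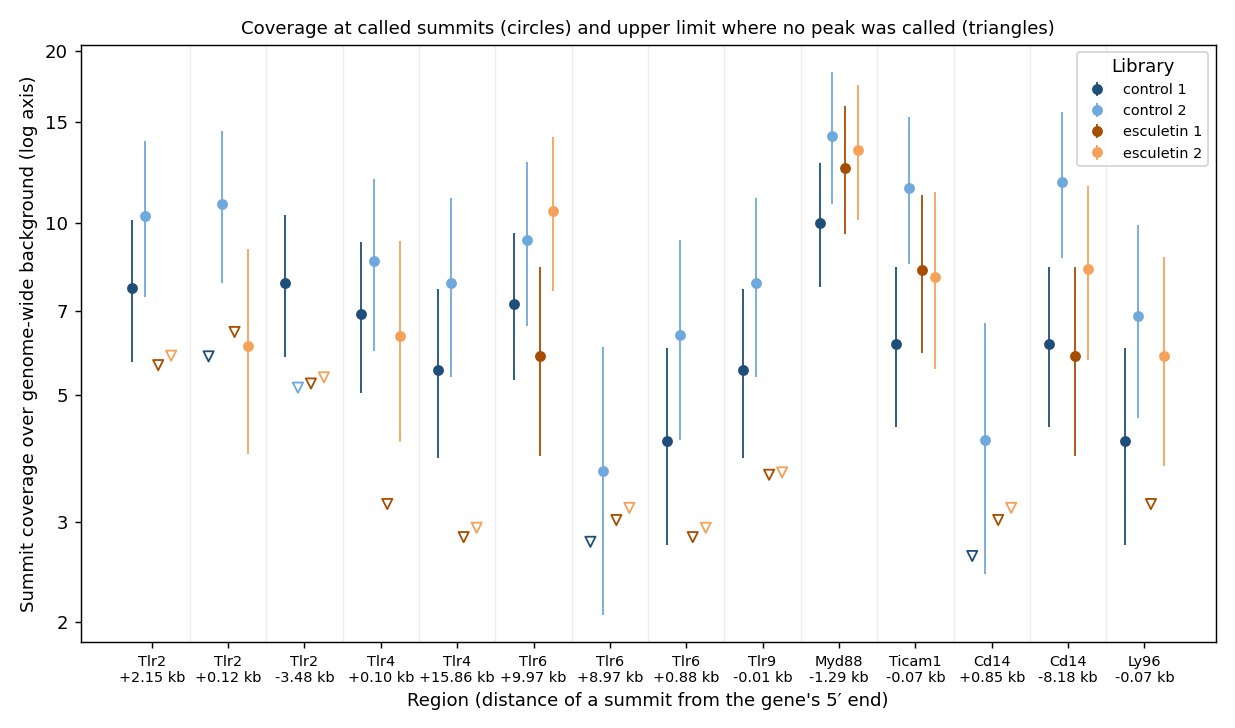
For the 14 regions (x axis, named by gene and distance in kb of a summit from the 5′ end), circles give the summit coverage divided by the genome-wide background of the library (log axis) with Poisson 95% intervals, and open triangles give the highest coverage an absent call allows. The esculetin triangles of Tlr9 (3.62 and 3.66) and of the region inside Tlr4 (2.82 and 2.93) lie below the control intervals. Triangles come from the same threshold as the absent calls, so this order in part restates the calls. In the Myd88 window the 4 intervals overlap. At Ticam1 both esculetin intervals overlap both control intervals, while those of control 1 and control 2 (4.39 to 8.37 and 8.47 to 15.3) stay apart.

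Over the 4 regions called in every library, percentile and coverage gave different pictures. By percentile, 2 of 4 had both esculetin libraries below both controls (in Tlr6 and at Tmco6) and none had both above. Lists cut to 8677 peaks shift such differences upwards, since the cut takes weak peaks from the longer control lists. Over the 3301 regions that all 4 cut lists held, the median difference was -6.63 in the full lists and 11.1 in the cut lists. The difference went from -26.3 to 1.79 in Tlr6 and from -25.8 to -2.21 at Tmco6 (exact permutation p = 0.67 and 1), both below the median in either setting. At Ticam1 it went from -12.2 to 13.9 and in the Myd88 window from 0.922 to 17.5 (exact permutation p = 0.67 and 0.33). Among 6181 regions called in all 4 libraries, 31.0% had both esculetin libraries below and 14.5% both above. By coverage over background, none of the 4 separated the groups in either direction, against 12.5% below and 18.8% above among 6024 regions with solved coverage. The median of the esculetin minus control percentile over all such regions was -4.61, and the median ratio of coverage over background was 1.03. The coverage at shared regions also differed within groups, with medians of 6.91 and 9.56 in the controls and 7.25 and 9.51 in the esculetin libraries.

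The rest of the pathway was read from a list of 36 genes, chosen with earlier results of these data known but not by how the genes changed. Of these, 23 had a promoter peak in control 1, 26 in control 2, 18 in esculetin 1 and 23 in esculetin 2, which was 63.9%, 72.2%, 50.0% and 63.9%, beside 40.7%, 42.1%, 30.1% and 37.9% of all protein-coding genes. In 17 genes it was called in all 4 libraries (26.9% of protein-coding genes), in 2 in both controls alone (3.75%) and in none in both esculetin libraries alone (0.419%). The control-only genes were Unc93b1, which escorts Tlr3 and Tlr9 to endosomes (percentiles 29.0 and 48.6), and Cd180, a receptor relative of Tlr4 (38.9 and 44.3). None of the 6 further receptors Tlr5, Tlr7, Tlr8, Tlr11, Tlr12 and Tlr13 had a promoter peak in any library, and neither did Ikbke, Lbp or Sigirr, so that 9 of 36 had none, against 52.8% of protein-coding genes.

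Of the 17 genes called throughout, 3 had both esculetin percentiles below both controls, against 30.0% of 5776 protein-coding genes called in all 4 libraries, and none had both above, against 14.5%. They were Map3k7 (79.2 and 69.4 against 40.8 and 48.7), Tbk1 (79.3 and 76.6 against 63.1 and 68.8) and Ikbkg (65.7 and 61.3 against 49.1 and 58.6). These encode kinases of the NF-kB and interferon branches (Map3k7, also called TAK1, and Tbk1) and a regulatory subunit of the IkB kinase. The median difference over the 17 genes was -5.38 percentile points, beside -4.47 over all such genes. A promoter call missing from esculetin 1 alone, as at Tlr4 and Ly96, was found for 3 of the 36 genes (6.16% of protein-coding genes), which were Chuk, a kinase subunit of the IkB kinase, Tirap, which brings Myd88 to Tlr2 and Tlr4, and Traf6, a ubiquitin ligase downstream of Myd88.

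**Figure D4:**
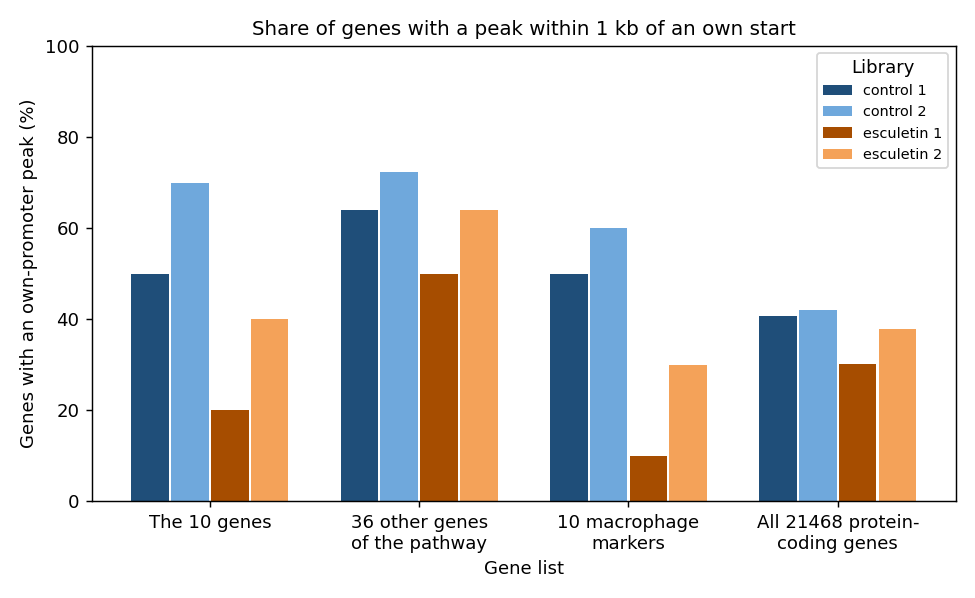
Bars give the percentage of genes (y axis) with a peak within 1 kb of an own start in each library, for the 10 genes, 36 other pathway genes, 10 macrophage markers and all 21468 protein-coding genes. In each list esculetin 1 is lowest, from 10.0% of the macrophage markers to 50.0% of the pathway genes.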

How the data were processed

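Per the labels and the study's methods, paired-end reads were trimmed by the authors (Trim Galore) and mapped to mm10 (Bowtie2). Sambamba then removed PCR duplicates and reads with several alignments. MACS2 was run by the authors on every library alone, with settings that are not given in the sources used here. The last deposited peak base on chromosome 1 (195372051) lies beyond that chromosome in GRCm39 (195154279 bp). The deposited lists give the summit's fold enrichment (a linear ratio), its −log10 p, its −log10 q and a score, equal to 10 times −log10 q rounded down in 99.98% to 100% of peaks. The lists hold no read counts, so the count model of the study was not run.

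Genes came from RefSeq on GRCm38.p6. Strand came from its promoter table or, where absent, from the same symbol in GENCODE vM39 (99.4% equal where both gave it). A gene's annotated starts were its 5′ end and any start in that table. The strand of Tlr4, Cd14 and Ly96 came from GENCODE, and their promoter sequences were not analysed here. Exon annotation was not used. Coverage and background were solved from the fold, (coverage + 1)/(background + 1), and the Poisson p (tolerance 0.002 in −log10 p) for peaks with a −log10 p under 60; 100% were solved with a single solution, and the procedure was tested on simulated data. Reads are extended by the caller, and a summit is the highest point of a peak, so intervals cover counting error only. Peaks sharing at least 1 bp were merged. Percentiles of −log10 p were taken within each list, and a region took its strongest peak. Single regions were tested by two-sided exact permutation over the libraries. All members were named. Of the pathway genes, those with no promoter peak, with calls in both libraries of 1 group and neither of the other, or with percentiles that did not overlap were named, and Chuk, Tirap and Traf6 were named after their values were seen. The members and lists were chosen with earlier results of these data known. Alternatives left out each library and changed list length, thresholds, windows, pseudogene peaks and the rank measure. The software was NumPy 2.4.6 and SciPy 1.17.1 with pandas 2.3.3, run in Python 3.11.15, and figures were drawn with matplotlib 3.10.9.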

Additional observations from a re-analysis of the deposited data

How the results depend on the processing

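With 2 libraries per group no exact permutation test could go below 0.33, so its p-values say nothing about stability. The lower number of genes with a promoter peak (difference of means -3) ranged from -4 to -2 when 1 library was left out and was 0 with equal numbers of strongest peaks. The lower number of peaks in the windows (-6.5) ranged from -8 to -5 and was -1.5 with equal numbers. The control-only regions (4) numbered 4 to 6 without 1 library and 1 with equal numbers, and esculetin-only regions were 0 in all 12 alternatives. The shorter list is part of that setting's own construction. At Ticam1 the percentile difference of -12.2 ranged from -20.9 to -3.55 without 1 library, and became 13.9 with equal numbers of peaks and 1204 when counted as control minus esculetin mean rank. Both settings shift such differences upwards, as the control lists are longer, but do not fix the sign. The medians over all regions in every list were 11.1 (3301 regions) and 2449 (6181 regions), with 73.6% and 83.3% of regions above 0. Percentiles in the full lists depend on list length as well, and their median difference was -4.61 (6181 regions). Inside Tlr6 the difference of -26.3 ranged from -45.9 to -6.75 and became 1.79 and 154 under the same settings. In the Myd88 window the difference of 0.922 ranged from -1.69 to 3.53 and became -1.48 without control replicate 2, -1.69 without esculetin replicate 1 and -0.432 without pseudogene peaks. With equal numbers it was 17.5, by rank 1523 and by percentile of the fold enrichment 8.77 (exact permutation p = 0.33 for each). At Tmco6 the difference of -25.8 was negative in all 11 alternatives, ranged from -35.2 to -16.5 without 1 library and shrank to -2.21 with equal numbers. Without 1 library the log2 ratio of coverage over background ranged from -0.50 to 0.41 at Ticam1, -0.50 to 0.34 in Tlr6, -0.13 to 0.37 in the Myd88 window and -0.74 to 0.20 at Tmco6. It turned sign without control replicate 2 at Ticam1 (0.41), in Tlr6 (0.18) and at Tmco6 (0.20), without control replicate 1 in the Myd88 window (-0.13), and without esculetin replicate 1 in Tlr6 (0.34). The causes of the reversals without 1 library or without pseudogene peaks were not tested. Within same-numbered pairs (replicate block), the Ticam1 difference stayed at -12.2 with an exact permutation p of 1, where 0.5 is the smallest possible. Deviations from the group means did not move together by number (r = 0.014 over 6024 regions, which share libraries), and peak names in the esculetin lists carry other numbers than the titles, so the numbers were not read as pairs. Use of the 5′ end alone, all alternatives at the Tlr6, Myd88 and Cd14 regions, and the coverage ratios were added after seeing the data. The planned median percentile difference over members was not run, because 1 member alone had a promoter peak in all 4 libraries. Absent calls are limits and not zeros, and the limit at Tlr2 is set by the high local background.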
